A study of Lathyrus oleraceus with 16 samples.

Results

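Reactivated and Pruned shoot apical meristems of pea (Pisum sativum, also called Lathyrus oleraceus) were compared by RNA-seq, using 8 of the 16 libraries of the study, 4 per state. The members were taken by their labels alone. Reactivated apices came from plants whose meristem had arrested, 24 h after every fruit and flower had been cut away. Pruned apices came from plants that were deflowered throughout, never carried seeds and never arrested; they were collected on the day on which the fruiting plants arrested. Arrested apices, from those fruiting plants, and Proliferative apices, from young plants with a first flower bud that had not yet opened, are used below as outside references, with 4 libraries each. All plants were wild type Cameor. The labels call the libraries biological replicates and do not say how many plants went into each. Apices were dissected by eye, so neighbouring leaf and bud tissue may be present.

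Pea flowers and fruits once. The shoot apical meristem, the group of dividing cells at the shoot tip that makes new leaves and flowers, stops producing flowers while seeds fill, an event called proliferative arrest. The arrest is reversible, since removing the fruits lets the apex resume growth. In Arabidopsis, arrested apices have been likened to dormant buds, with low cell division, and cytokinin, a hormone that promotes division in the meristem, can restart them. Setting Reactivated against Pruned asks what separates an active meristem that has just restarted from an active meristem that never stopped. A response to the single late cutting, the difference between late and repeated cutting, and any difference in plant age or hour of collection cannot be told apart from the restart itself.

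The 48559 gene IDs of the count table start with Psat, and 0 of them matched the RefSeq gene table of pea used here. No gene function can therefore be attached to a value, the identity of the tissue could not be checked against markers, and markers of leaf or bud tissue were not analysed here. Genes are described by their level, size of change and behaviour in the other groups, and 4 IDs are given with all their values. In a bulk sample, a change in the number of cells that express a gene and a change in its RNA per cell cannot be told apart.

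Depth overlapped between the states, with 17690746 to 22463721 counts per library in Reactivated and 17459226 to 21462529 in Pruned. Reactivated libraries were the more alike among themselves. On the log2 CPM scale, where CPM is the count scaled to the same total in every library, they correlated pairwise at a mean r of 0.973 across genes (0.956 to 0.981), against 0.951 (0.936 to 0.962) among Pruned libraries, and the common biological coefficient of variation, the spread between replicates beyond counting error as a share of the level, was 0.224 in Reactivated and 0.335 in Pruned. Libraries of different states correlated at 0.910 on average (0.892 to 0.934), so each of the 8 was closer to its own group. Reactivated 4 was the Reactivated library nearest to Pruned, with a mean r of 0.921 to the Pruned libraries.

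Restarted apices differed widely from those that had never arrested, mostly by moderate amounts. Of 23979 genes tested, 4396 (18.3%) were higher and 5225 (21.8%) lower in Reactivated, together 40.1%, by the quasi-likelihood test of edgeR at a threshold of 0.05 after Benjamini-Hochberg adjustment. The median change was 0.84 on the log2 scale among genes called higher and -1.06 among genes called lower, and 53.5% of the called changes were smaller than 2-fold. Large falls outnumbered large rises among the called genes. With genes at 0 counts set to a floor of 3 counts over the group, 453 were over 8-fold lower and 152 over 8-fold higher. By the same measure 1049 were over 4-fold lower and 346 over 4-fold higher. A test against a 2-fold difference (edgeR glmTreat, the same adjustment) passed 681 genes that were higher (2.84%) and 979 that were lower (4.08%), 6.92% in all. The 4 Reactivated libraries lay wholly above or below the 4 Pruned libraries in 36.3% of the tested genes, 17.5% above and 18.9% below, and in 86.3% of the genes called higher and 78.6% of those called lower. Log2 fold changes had a median standard error of 0.22. The split of directions depends on scaling. When libraries were scaled by their totals alone, without TMM factors, 2279 genes came out higher and 9835 lower, the median of all genes was -0.45 in place of -0.080 on the log2 scale, and 319 genes that were higher and 1870 that were lower passed the 2-fold test.

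**Figure D1:**
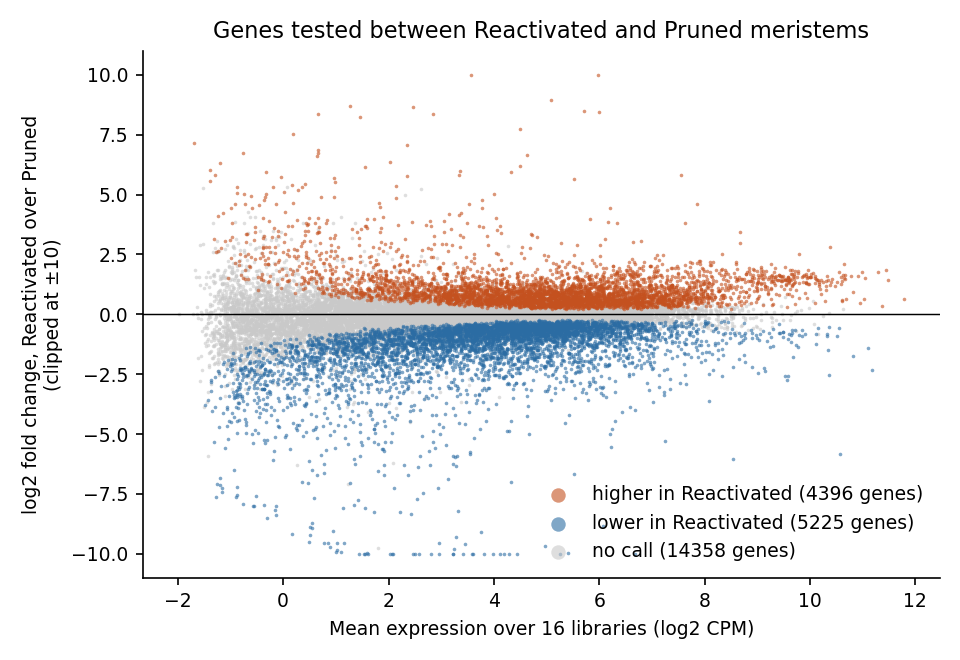
Each point is a gene tested between Reactivated and Pruned libraries. The horizontal axis is its mean level over the 16 libraries (log2 CPM), and the vertical axis its log2 fold change, Reactivated over Pruned, drawn at 10 or -10 where it lies beyond. The 4396 genes called higher are orange, the 5225 called lower are blue and the 14358 with no call are grey. Blue points outnumber orange ones among the large changes, and orange points outnumber blue ones among the most abundant genes.

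Genes at least 2-fold higher in Reactivated were more abundant, by their medians, than genes at least 2-fold lower. Genes of low abundance were also among the higher ones, as given by rank below. Genes at least 2-fold higher had a median level of 7.08 log2 CPM in Reactivated, 5.45 in Pruned, 5.12 in Arrested and 5.54 in Proliferative. Genes at least 2-fold lower had a median level of 1.34 log2 CPM in Reactivated, 3.75 in Pruned, 2.44 in Arrested and 3.27 in Proliferative. In both lists the Proliferative median lay nearer to that of Pruned than to that of Reactivated, although the test did not use the Proliferative level.

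Fewer genes carried the RNA of a Reactivated library. The number of most abundant genes that together held 50% of the counts was 759 ± 117 in Reactivated (658 to 927) and 1413 ± 219 in Pruned (1142 to 1593; SD, n = 4 each), and the groups did not overlap (two-sided exact permutation test, p = 0.0286, the smallest that 4 against 4 allows; adjusted over 3 such measures, p = 0.0286). The number was 1752 ± 105 in Arrested and 1379 ± 198 in Proliferative. The share of the 10 most abundant genes placed Arrested otherwise: it was 3.85% ± 0.216 in Reactivated, 2.70% ± 0.191 in Pruned, 4.85% ± 0.460 in Arrested and 2.69% ± 0.301 in Proliferative (SD, n = 4; two-sided exact permutation test of Reactivated against Pruned, p = 0.0286). To reach 90% of the counts took 7286 ± 233 genes in Reactivated and 9110 ± 323 in Pruned, again without overlap. The top 100 genes by count in a library made up 19.5% ± 1.54 of its total in Reactivated and 13.5% ± 1.18 in Pruned. They made up 14.7% ± 0.842 in Arrested and 13.8% ± 1.44 in Proliferative. At 5 or more counts, 22978 ± 181 genes were detected in Reactivated and 24044 ± 307 in Pruned (SD, n = 4; two-sided exact permutation test, p = 0.0286). The exact p for the 50% measure was 0.0571 without Reactivated 3, and that for genes detected at 1 or more counts was 0.0571 without any single Reactivated library.

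**Figure D2:**
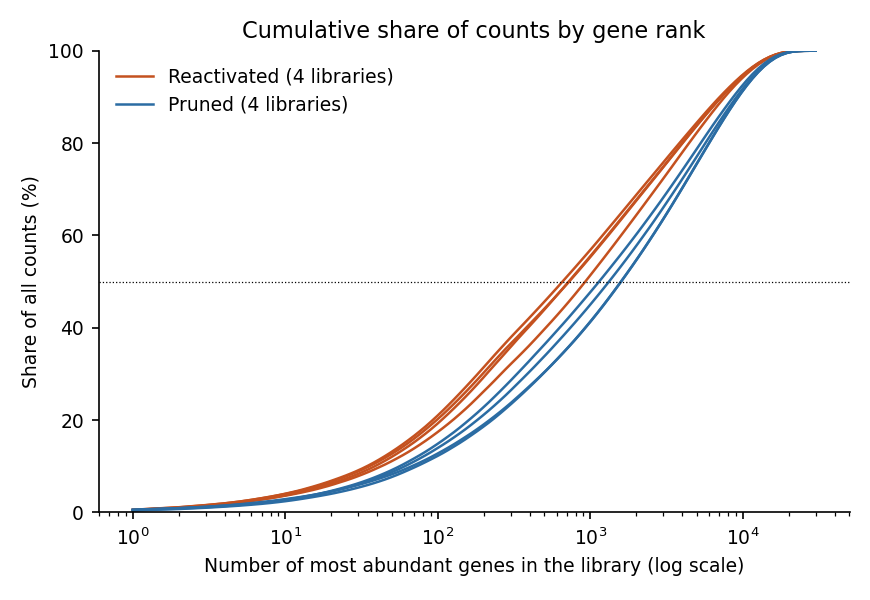
The share of all counts (vertical axis, %) is plotted against the number of most abundant genes of the same library (horizontal axis, log scale), 1 line per library, orange for Reactivated and blue for Pruned. The dotted line marks 50% of the counts, which Reactivated libraries reach at 658 to 927 genes and Pruned libraries at 1142 to 1593.

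Genes that are already abundant in a young, never-arrested apex were called higher in Reactivated at a larger share than all genes tested. In the top 100 the share called lower was larger too with TMM factors, but not with library totals. Genes were ranked by their mean CPM in the 4 Proliferative libraries, which belong to neither state; this ranking was chosen after the values had been seen, and CPM is not corrected for gene length, so long genes rank higher. Of the 100 most abundant genes, 56 were higher in Reactivated, 33 were lower and 11 had no call, so both shares were above the 18.3% and 21.8% of all genes tested, and their median log2 fold change was 0.60. The median was 0.47 for ranks 101 to 500, 0.23 for ranks 501 to 2000, 0.0093 for ranks 2001 to 5000, -0.066 for ranks 5001 to 10000 and -0.15 for ranks 10001 to 20000, beside -0.080 for all genes tested. With library totals these medians were 0.23, 0.10, -0.14, -0.36, -0.44 and -0.53, in the same order of ranks and beside -0.45 for all genes. Genes at least 2-fold higher made up 29.0% of the top 100 and 26.5% of ranks 101 to 500, against 2.84% of all genes tested, while genes at least 2-fold lower made up 3.00% and 5.25%, against 4.08%. These counts depend on scaling. With library totals, 47 of the top 100 were higher and 41 lower, beside 2279 and 9835 of the 23979 genes tested. The share called lower was then near that of all genes, and the share called higher was above it. Genes at least 2-fold higher then made up 5% of the top 100 and 8.25% of ranks 101 to 500, against 1.33% of all genes tested. The least abundant class held 2-fold higher genes as well. At ranks 20001 to 48559, 145 of 4086 genes tested (3.55%) were at least 2-fold higher, against 2.84% of all genes tested, and 160 (3.92%) were lower. With library totals 109 genes of this class (2.67%) were at least 2-fold higher, against 1.33% of all genes tested, and 278 were lower. These 109 made up 34.2% of all genes then at least 2-fold higher. Abundant genes are also measured with less counting error, which favours calls in both directions.

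The gain and loss of read share by rank was visible in single libraries. Ranks 101 to 500 took 24.8% ± 1.53 of the counts in Reactivated (22.6% to 26.0%) and 19.3% ± 1.67 in Pruned (17.8% to 21.5%). Ranks 501 to 2000 took nearly the same share in both states, 24.1% ± 0.479 in Reactivated and 23.9% ± 0.245 in Pruned. Ranks 5001 to 10000 took 12.1% ± 0.696 in Reactivated (11.5% to 13.1%) and 15.3% ± 1.07 in Pruned (14.0% to 16.3%). Ranks 10001 to 20000 took 6.11% ± 0.296 in Reactivated and 8.47% ± 0.627 in Pruned (SD, n = 4 each). For the top 100 the libraries overlapped, at 14.0% to 16.2% in Reactivated and 11.3% to 14.3% in Pruned. In Arrested libraries the top 100 took 7.54% ± 0.479 and ranks 101 to 500 took 12.8% ± 0.340, below Reactivated and Pruned. The genes were ranked in Proliferative, an active state, so a lower share in Arrested is favoured by the ranking. By each library's own ranking the top 100 took 14.7% in Arrested, not below the 13.5% of Pruned.

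**Figure D3:**
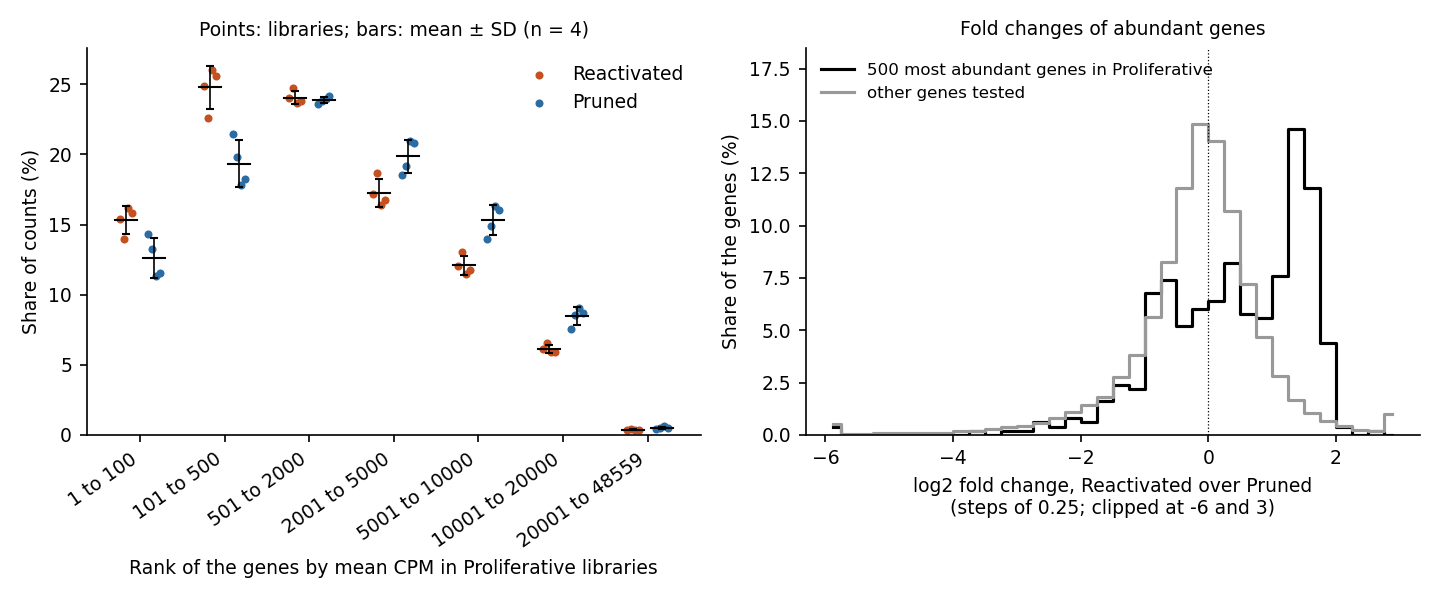
Left, the share of counts (%) taken by genes of each abundance rank in the Proliferative libraries. Points are libraries, orange for Reactivated and blue for Pruned, and bars give mean ± SD (n = 4). Right, the distribution of log2 fold changes, Reactivated over Pruned, in steps of 0.25 (changes beyond -6 or 3 are counted in the end steps), for the 500 most abundant genes (black) and the other genes tested (grey). The black line has a separate peak between 1.25 and 1.75 that the grey line lacks.

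Many of the abundant genes differed by similar factors. Of the 500 most abundant genes in Proliferative, 132 (26.4%) had a log2 fold change between 1.25 and 1.75, against 636 of the other genes tested (2.71%). In the 500, 135 genes passed the 2-fold test as higher in Reactivated and 24 as lower. The 135 were chosen on this contrast, so their rise is a description: their median log2 fold change was 1.56, a 2.94-fold difference, with an interquartile range of 1.45 to 1.68 and a full range of 1.21 to 2.53, whose lower side is cut by the 2-fold test. Of the 500 genes, 38 lay between 1 and 1.25, whether or not they passed. All 135 had every Reactivated library above every Pruned library, as did 674 of the 681 genes at least 2-fold higher and 17.5% of all genes tested. The choice on this contrast favours that separation. They held 20.9%, 17.6%, 21.6% and 19.7% of the counts in Reactivated 1 to 4, against 10.1%, 8.59%, 7.62% and 8.07% in Pruned 1 to 4. Reactivated 2 was the lowest of its group and Pruned 1 the highest of its own. The gap between the groups was wider than the spread within either, which the choice of the genes also favours.

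The same 135 genes held 9.12% ± 0.771 of the counts in Proliferative, close to the 8.60% ± 1.10 of Pruned, and 4.50% ± 0.168 in Arrested, against 19.9% ± 1.76 in Reactivated (SD, n = 4). The 135 were chosen by their rank in Proliferative and by their difference between Reactivated and Pruned. Their levels in these groups are therefore not independent of the choice, and a lower level in Arrested is favoured by the ranking. Their median level was 10.60 log2 CPM in Reactivated, 9.03 in Pruned, 7.86 in Arrested and 9.14 in Proliferative. The difference between Arrested and Proliferative was not particular to the 135: the median level of all 500 genes was 7.67 log2 CPM in Arrested and 8.93 in Proliferative, beside 9.50 in Reactivated and 8.90 in Pruned. All 500 were taken by their Proliferative level, so the ranking favours this difference as well. Psat2g033920, described below, was the gene with the largest gain in CPM. How many genes pass the 2-fold test depends on scaling and on the libraries: with library totals 38 of the 500 passed, although each of the 135 was still called higher by the plain test with a median of 1.19, and without Reactivated 3 the number was 89.

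Whether a gene differed between Reactivated and Pruned was also set beside its change at arrest, measured in libraries of neither state. Change at arrest means here the difference of Arrested from Proliferative. These plants also differed in age and in bearing fruits, which cannot be told apart from the arrest. Arrested and Proliferative libraries were fitted alone, which called 7583 genes higher (33.1%) and 7358 lower (32.1%) in Arrested, 65.2% of 22923 tested, by the same edgeR test. Both comparisons could be made for 22923 genes. Across them the log2 fold changes of the 2 comparisons were only weakly related, with a Pearson r of 0.17 and a Spearman rho of -0.040; genes are not independent replicates, and no library is shared. Grouped by the size of the change at arrest, the medians ran one way for strongly changed genes and the other way for moderately changed ones.

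Genes that differed most between Arrested and Proliferative lay in Reactivated, by their medians, on the Arrested side of Pruned. The 639 genes called over 16-fold lower in Arrested than in Proliferative had a median level of 3.57 log2 CPM in Reactivated, 4.50 in Pruned, -0.86 in Arrested and 4.35 in Proliferative. Of them 308 (48.2%) were lower in Reactivated than in Pruned and 41 (6.42%) higher, against 21.8% and 18.3% of all genes tested, and their median log2 fold change was -0.83. Averaged over the list, the level was 3.32, 3.59, 3.43 and 3.91 log2 CPM in Reactivated 1 to 4, against 4.46, 4.68, 4.19 and 4.59 in Pruned 1 to 4, with no overlap.

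The 378 genes called over 16-fold higher in Arrested showed the mirror image. Their median level was -0.90 log2 CPM in Reactivated, -2.24 in Pruned, 2.75 in Arrested and -1.87 in Proliferative, so in both active states these genes were near the limit of detection. Of them 136 (36.0%) were higher in Reactivated than in Pruned and 18 (4.76%) lower, against 18.3% and 21.8% of all genes tested. The median log2 fold change was 1.27, beside -0.080 for all genes tested. It was 1.08 with genes at 0 counts in a group set to the floor of 3 counts. List means ran from -0.61 to -0.26 log2 CPM in the Reactivated libraries and from -1.74 to -1.37 in the Pruned libraries. At the extreme were 75 genes over 64-fold higher in Arrested. Of these, 38 (50.7%) were higher in Reactivated than in Pruned and 3 (4.00%) lower, against the same 18.3% and 21.8%.

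Genes that differed by a moderate amount between Arrested and Proliferative leaned the opposite way in their calls and median fold changes. Of 2825 genes called 2- to 4-fold higher in Arrested, 935 (33.1%) were lower in Reactivated than in Pruned and 276 (9.77%) higher, beside 21.8% and 18.3% of all genes tested, while 1614 had no call; the median log2 fold change was -0.30. Their list mean ran from 2.50 to 2.65 log2 CPM in the Reactivated libraries and from 2.79 to 2.99 in the Pruned libraries. Of 2648 genes called 2- to 4-fold lower in Arrested, 860 (32.5%) were higher in Reactivated and 457 (17.3%) lower, beside 18.3% and 21.8% of all genes tested, and 1331 had no call, with a median of 0.16 and list means of 4.75 to 4.81 log2 CPM in Reactivated and 4.59 to 4.68 in Pruned. With library totals the last list had a median of -0.21, with 548 genes higher and 880 lower, which reverses its direction although it stayed above the median of all genes of -0.45. On that scale the other medians were -0.67 for the 2- to 4-fold higher genes, 0.91 for the over 16-fold higher genes and -1.20 for the over 16-fold lower genes. The median level of the 2- to 4-fold lower genes was not higher in Reactivated, at 4.67 log2 CPM against 4.70 in Pruned. With TMM factors the share called higher also rose with abundance in Proliferative. It was 12.9% at ranks 10001 to 20000, 20.9% at ranks 5001 to 10000 and 26.7% at ranks 2001 to 5000. All genes tested are therefore not a background of matched abundance, and a lean beyond abundance was not tested.

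**Figure D4:**
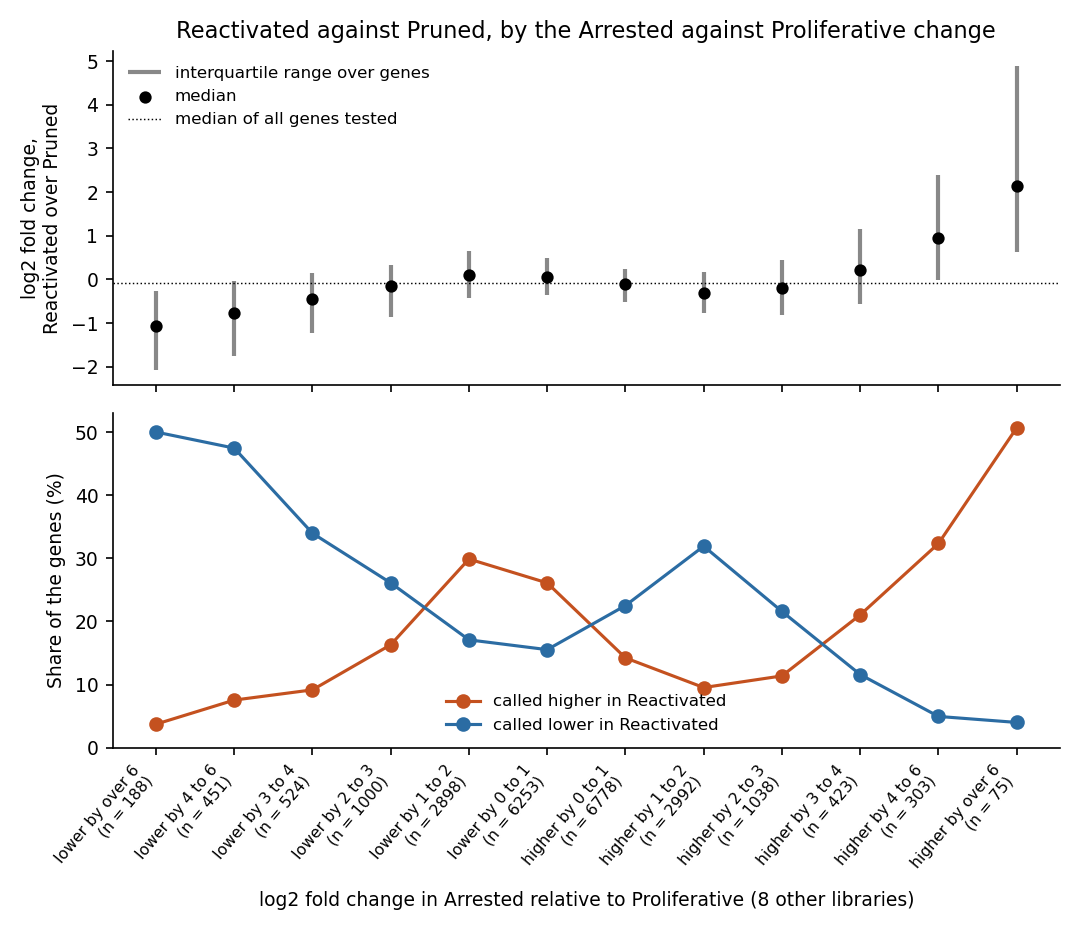
Genes are grouped along the horizontal axis by their log2 fold change in Arrested relative to Proliferative, with the number of genes in each group. Upper panel, the median log2 fold change of each group, Reactivated over Pruned, with genes at 0 counts in a group set to the floor of 3 counts. Grey lines are interquartile ranges over genes of the fitted changes, without that floor. The dotted line is the median of all genes tested, with the floor. Lower panel, the share of each group (%) called higher (orange) or lower (blue) in Reactivated. The lines cross 3 times: lower calls prevail at the left end and at moderate rises, and higher calls prevail at moderate falls and at the right end.

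Read the other way, the genes with large differences between Reactivated and Pruned came from all of these classes. Of the 681 genes at least 2-fold higher in Reactivated, 384 (56.4%) were lower in Arrested than in Proliferative, 171 (25.1%) were higher, 104 (15.3%) had no call and 22 were not tested there. With library totals this lean was not seen: of the 319 genes that were then at least 2-fold higher, 128 (40.1%) were lower and 126 (39.5%) higher in Arrested. Of the 979 genes at least 2-fold lower in Reactivated (TMM factors), 354 (36.2%) were lower in Arrested than in Proliferative, 299 (30.5%) were higher, 229 (23.4%) had no call and 97 were not tested. Of all 22923 genes tested between Arrested and Proliferative, 32.1% were lower and 33.1% higher in Arrested, near the shares of the 979. The 384 genes were 5.22% of all those lower in Arrested and the 171 genes were 2.26% of all those higher, beside 2.84% of all genes tested. The 354 genes were 4.81% of all those lower in Arrested and the 299 genes were 3.94% of all those higher, beside 4.08% of all genes tested.

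Complete switches between the states were rare when 1 CPM was asked of each library of the higher group. The shares below are of all gene IDs, of which 17007 had 0 counts in all libraries. Without the 1 CPM rule, 93 called genes had 0 counts in Reactivated or in Pruned. Only 11 of the 48559 gene IDs (0.0227%) reached 1 CPM in each Reactivated library with 3 or fewer counts over the 4 Pruned libraries, which is at most 0.0381 CPM. Their level pooled over the Reactivated libraries ran from 1.92 to 61.0 CPM with a median of 6.15. Of these 11, 9 were on in every Arrested library and 0 were on in every Proliferative library, with median pooled levels of 25.5 CPM in Arrested and 0.315 CPM in Proliferative. The opposite state, on in each Pruned library and silent in Reactivated, was met by 14 gene IDs (0.0288%), at a pooled 1.26 to 42.3 CPM in Pruned with a median of 4.16. Of these 14, 2 were on in every Arrested library and 3 in every Proliferative library. The share of all gene IDs that were on in every Arrested or Proliferative library is not set beside these counts. They describe the 11 and the 14 only. The count of 14 became 24 without Reactivated 4, 29 without Pruned 3 and 23 without Pruned 4, and at a limit of 0 counts the numbers were 2 and 4 in place of 11 and 14.

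Single genes were taken by a rule on fold and CPM. It was applied to called genes whose Reactivated and Pruned libraries do not overlap and that reach 10 CPM in each library of the higher group, which 1637 genes that rose and 2813 that fell satisfied. Their separation and their call between these groups are therefore set by the rule and are given as a description. Psat1g095640 had the largest fitted rise. It stood at 60.5, 38.8, 88.9 and 56.1 CPM in Reactivated 1 to 4, against 0 counts in each of the 4 Pruned libraries. With a floor of 3 counts over the Pruned group the gene was at least 1601-fold higher in Reactivated (edgeR quasi-likelihood test, adjusted p = 4.17e-08). It stood at 136 to 287 CPM in Arrested and had 3 counts over the Proliferative libraries, all in Proliferative 3. The log2 fold change of Reactivated over Arrested was -1.15, with an SE of 0.32 (adjusted p = 0.00588 in edgeR), which puts the gene between the arrested and the never-arrested levels.

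Psat2g033920 had the largest gain in CPM and was among the 100 most abundant genes. It stood at 5653, 4985, 5756 and 4988 CPM in Reactivated 1 to 4, against 2043, 1988, 1740 and 1812 CPM in Pruned 1 to 4. It averaged 5346 ± 417 CPM in Reactivated and 1896 ± 143 CPM in Pruned (SD, n = 4), and the log2 fold change was 1.87, with an SE of 0.11 (adjusted p = 9.28e-09 in edgeR). It was at 811 ± 57.7 CPM in Arrested and 1944 ± 115 CPM in Proliferative (SD, n = 4), with Reactivated above the other 3 groups and Arrested below them. Between Pruned and Proliferative there was no call, at -0.026 on the log2 scale with an SE of 0.11 (adjusted p = 0.960 in edgeR).

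Psat0s2707g0200 had the largest fitted fall. It had 3 counts over the Reactivated libraries, 2 in Reactivated 2 and 1 in Reactivated 4, against 54.7, 39.5, 66.7 and 13.2 CPM in Pruned 1 to 4. Pooled over libraries it was 1092 times as high in Pruned, with a 95% Poisson interval of 373 to 5296 that covers counting error only (edgeR adjusted p = 1.59e-06). It was low in the other groups as well, with 5 counts over the Arrested libraries and 26 over the Proliferative libraries, 22 of them in Proliferative 2. The log2 fold change of Pruned over Proliferative was 7.12, with an SE of 0.78 (adjusted p = 0.000101 in edgeR), so the gene set Pruned apart from the other active groups too.

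Psat0s1212g0160 lost the most CPM. It stood at 473, 697, 714 and 1305 CPM in Reactivated 1 to 4, against 4981, 5928, 5660 and 4151 CPM in Pruned 1 to 4. Reactivated 4 was the highest of its group. The log2 fold change was -2.33, with an SE of 0.38 (adjusted p = 0.000151 in edgeR). The gene averaged 416 ± 236 CPM in Arrested and 2891 ± 996 CPM in Proliferative (SD, n = 4), and Reactivated over Arrested gave 1.50 on the log2 scale, with an SE of 0.37 (adjusted p = 0.00179 in edgeR). Reactivated and Arrested overlapped, since Arrested 4 stood at 770 CPM, above Reactivated 1, 2 and 3, and the other 3 Arrested libraries at 286 to 305 CPM. The comparisons of these genes with Arrested and Proliferative share libraries with the one between Reactivated and Pruned. The counts were made without regard to strand, so an antisense or overlapping neighbour, or a near-identical copy, could not be separated from any of the 4.

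**Figure D5:**
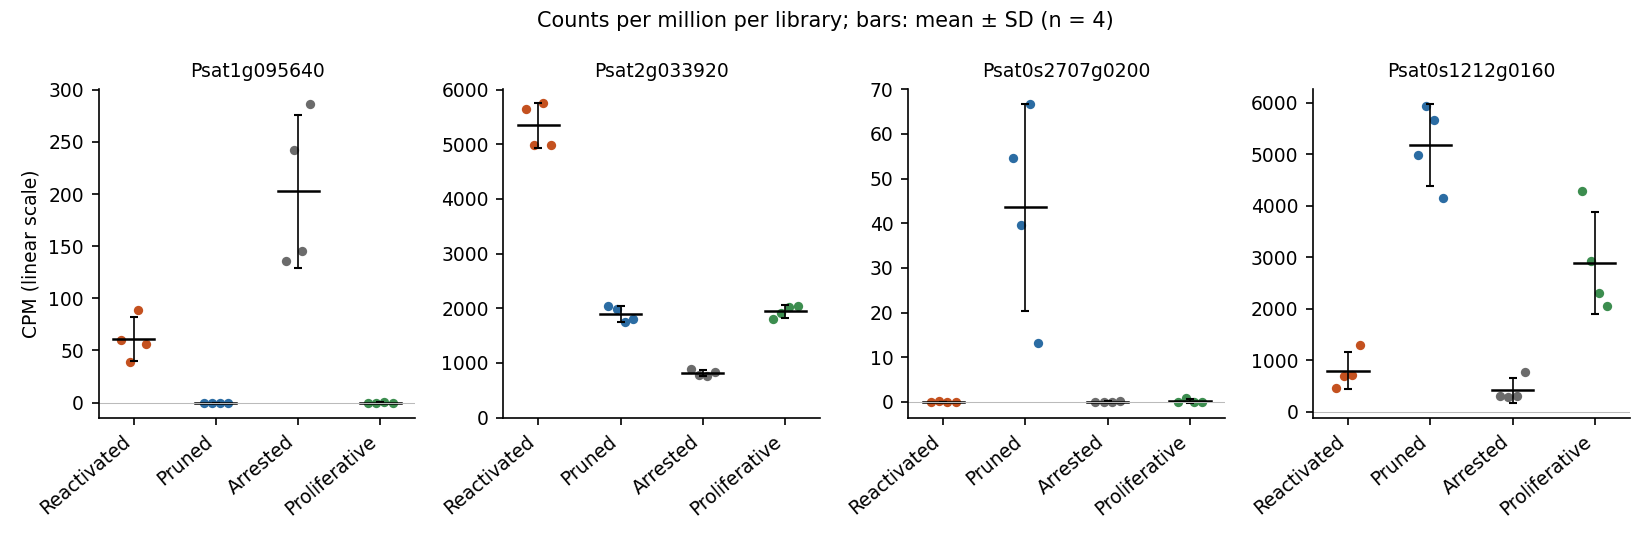
CPM (vertical axis, linear, a scale per gene) of the 4 genes in each library of the 4 groups. Points are libraries and bars give mean ± SD (n = 4). Psat1g095640 lies between Arrested and Pruned in Reactivated, Psat0s1212g0160 is lower in Reactivated than in Pruned and overlaps with Arrested, Psat2g033920 is highest in Reactivated, and Psat0s2707g0200 is seen at 13.2 CPM or more in Pruned and under 1 CPM in every other library.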

How the data were processed

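The raw read counts that the authors deposited, in 1 table for the 16 libraries, were used; 0 rows named no gene and 0 other sample columns were present. The submitters' processing notes list HTSeq, DESeq2, cutadapt and HISAT2 without role or version; the deposited counts are named as made without regard to strand. The genome build is not given in the sources used here. Analysis used R 4.3.3 and edgeR 4.0.16. Genes were filtered with filterByExpr by group, leaving 23979 that held at least 99.69% of each library's counts, and scaled with TMM factors, which take the bulk of genes as unchanged or balanced. The quasi-likelihood fit held the 16 libraries, with group as its only term, and was tested on simulated data. The standard error is the log2 fold change divided by the square root of F. CPM uses library totals; log2 CPM uses TMM factors and a prior count of 2.

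The named genes are, among called genes without overlap of libraries and with 10 CPM or more in each library of the higher group, those with the largest log2 fold change and the largest CPM difference in each direction. The comparison and its lists were chosen with earlier results of these data known. Lists of genes by function were not run, as no ID matched. Where nothing says that libraries came from separate plants, p-values measure only the spread between these libraries. Replicates differed by more than counting error, with a chi-square per degree of freedom of 11.1 or more for every pair. Alternatives were library totals, RLE factors, no filter, DESeq2 1.42.0, a fit of only the 8 libraries, a replicate block, a stricter threshold and leaving out each library.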

Additional observations from a re-analysis of the deposited data

Results flagged for a closer look

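Examined were 36 sets of 4 libraries (5 library measures and the 4 named genes, in each of the 4 groups). Of these sets, 4 had a library far from the other 3 relative to the group's range. Chance alone gives about 1 in 20 for normally distributed values. That rate need not hold for sets with few counts, such as those of Psat1g095640 and Psat0s2707g0200 given here. None of the 4 flagged sets was in a Reactivated or Pruned group. For Psat1g095640, all 3 counts in Proliferative came from Proliferative 3, a gap of 1 of the range. For Psat0s2707g0200, all 5 counts in Arrested came from Arrested 4, also 1 of the range, and Proliferative 2 held 22 of 26 counts, 0.949 of the range. For Psat0s1212g0160, Arrested 4 stood at 770 CPM and the other 3 Arrested libraries at 286 to 305 CPM, 0.960 of the range.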

How the results depend on the processing

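The number of called genes was 12114 with library totals, 9591 with RLE factors, 9250 with no filter, 10266 with DESeq2, 8846 with only the 8 libraries and 6617 at an adjusted p under 0.01, of which 7504, 9341, 8994, 9496, 8462 and 6617 were among the 9621 with the same direction. Library totals moved the counts to 2279 higher (18.8% of calls) and 9835 lower, the 2-fold counts to 319 and 1870, the abundant 2-fold set to 38, and the medians to -0.45 for all genes, 0.91 for genes strongly higher and -1.20 for genes strongly lower in Arrested. The median of all genes was -0.048 with RLE factors and -0.048 with DESeq2. At the stricter threshold 3392 genes were lower, 1002 passed the 2-fold test (422 higher and 580 lower), and 80 were in the abundant set. Silence at 0 counts left 2 and 4 switched genes.

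Without each library in turn, calls ran from 8033 (without Reactivated 1) to 9344, of which 7926 to 8648 were shared with all 8 libraries. Higher calls ran from 3959 to 4597, lower calls from 4074 to 5052, genes past the 2-fold test from 1197 to 1612 (530 to 746 higher, 659 to 934 lower) and the abundant set from 89 to 167. The share of calls that were higher ran from 45.5% to 49.3%, the median of all genes from -0.094 to -0.051, the median size of a call from 0.98 to 1.01, and the medians of genes strongly higher and strongly lower in Arrested from 1.13 to 1.45 and from -0.98 to -0.70. Switched genes ran from 11 to 14 and from 14 to 29. The difference in genes detected ran from -1024 to -751, in the share of the 10 most abundant genes from 1.06 to 1.23 percentage points, and in genes holding 50% of the counts from -744 to -594. The 4 named genes kept their direction and their call in each of these fits.

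Replicate numbers did not pair the libraries. Same-numbered Reactivated and Pruned libraries deviated from their group means with correlations of -0.32 to -0.024, and 0 of 4 matched best by number. With a replicate block 8944 genes were called, 8841 of them shared with the fit without it. Depth limits the 378 genes strongly higher in Arrested, whose median in Pruned is below 1 CPM, and folds against 0 counts are lower bounds.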

Other observations

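Calls were spread evenly over the IDs. Grouped by the digit that follows Psat in the ID, 0 to 7, the share of tested genes that were higher in Reactivated ran from 17.6% to 19.2%, beside 18.3% of all genes tested, and the share that were lower ran from 20.5% to 22.6%, beside 21.8%. The digit is used only as it stands in the ID, without a claim about position in the genome.

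The TMM factor is set so that the bulk of genes is balanced between libraries. It was 0.795 ± 0.0359 in Reactivated, 1.03 ± 0.0528 in Pruned, 1.19 ± 0.048 in Arrested and 1.03 ± 0.0374 in Proliferative (SD, n = 4). The factors of Arrested and Reactivated thus lay on either side of those of the never-arrested groups.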
